A study of Homo sapiens with 4 samples.

Results

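The 7SL RNA rows of the count table were described in immunoprecipitates of SF3B6 (IP) and in input RNA of MDA-MB-231, a human breast cancer line without hormone receptors. Members were all rows whose symbol begins with RN7SL or is Metazoa_SRP, which gave 76 of 18276 rows. They were the genes RN7SL1 and RN7SL3, 60 named pseudogene copies and 14 rows with the family name Metazoa_SRP. The gene RN7SL2 was not analysed here. There were 2 IP libraries (SF3B6 IP 1 and 2) and 2 input libraries (input 1 and 2), which the series calls biological replicates. The labels' protocols give irradiation of the cells at 400 mJ/cm2, trimming of RNA in the lysate by micrococcal nuclease, and recovery with 5 ug of antibody. The samples' cell line fields end in different digits, so the name was taken from the titles, which all read MDA-MB-231. SF3B6 is a subunit of the U2 snRNP, the splicing particle that recognises the branch point of introns, and the design sets out to find the RNAs it touches. With input as the only comparison, RNA carried along unspecifically and RNA bound to SF3B6 cannot be told apart.

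7SL is the RNA scaffold of the signal recognition particle. That particle binds signal peptides as they leave the ribosome and brings the ribosome to the endoplasmic reticulum (ER). The RNA is made by RNA polymerase III and is one of the most abundant small RNAs of the cytosol. It is also the ancestor of the Alu repeats, and the human genome holds a large number of pseudogene copies of it. Where a copy is near-identical to the genes over a long stretch, a read can match several of them. How alike each copy is was not computed, and the sources used here do not say how such reads were assigned.

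Counts in genes came to 55492 and 30431 in SF3B6 IP 1 and 2, against 317190 and 519836 in input 1 and 2. A count of 0 allows 3 counts, or 54.1 and 98.6 counts per 1000000 counts in genes (CPM) in the IP libraries, against 9.46 and 5.77 CPM in the inputs. Of 10 markers of the mesenchymal breast line, 9 had counts and CDH2 had 0. Of 7 luminal markers 5 had counts, most of them KRT19 (10 and 5 in SF3B6 IP 1 and 2, against 64 and 127 in input 1 and 2) and ERBB2 (7 and 3 against 76 and 147), while ESR1 and PGR had 0. Of 4 markers of other cells COL1A1 had 5 and 2 counts in IP against 19 and 29 in input, and PTPRC, HBB and ALB had 0. The deeper IP library had fewer counts than the shallower input, and depth therefore cannot be told apart from IP.

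All 7SL rows together held 4329 and 4474 counts in SF3B6 IP 1 and 2, against 11588 and 12549 in input 1 and 2. That was 7.80% of IP 1 counts (95% Wilson interval 7.58 to 8.03) and 14.7% of IP 2 counts (14.3 to 15.1), against 3.65% of input 1 counts (3.59 to 3.72) and 2.41% of input 2 counts (2.37 to 2.46). The groups did not overlap, and the IP libraries differed from each other by more than the inputs did. The mean difference was 8.22 percentage points (exact permutation test, two-sided, p = 0.333, the smallest that 2 against 2 libraries allow). Wilson intervals, exact intervals and floors cover counting error only, and not the spread between libraries.

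**Figure D1:**
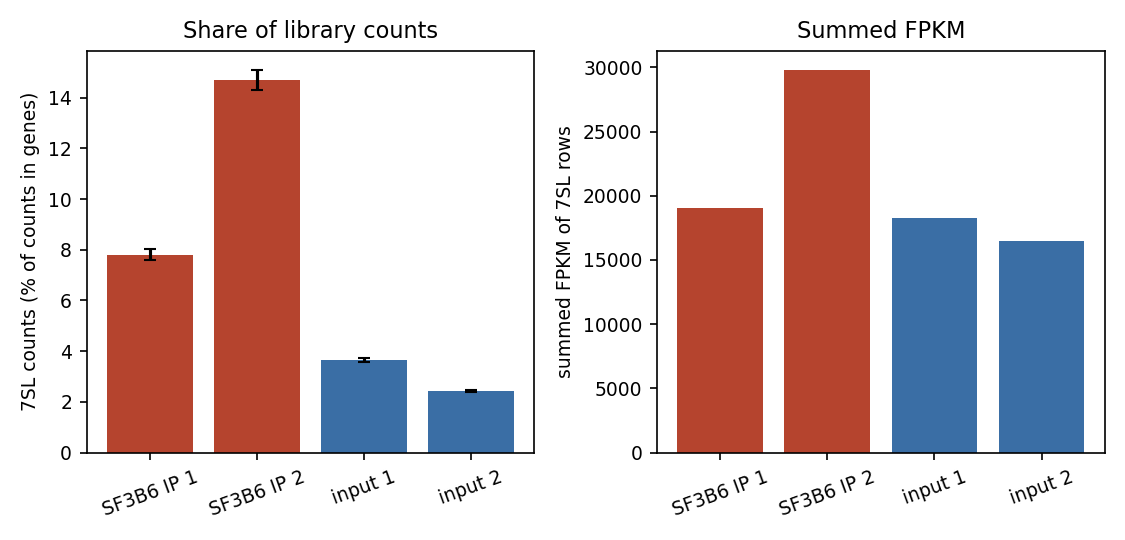
Left, counts of all 7SL rows as a percentage of counts in genes (bars, with 95% Wilson intervals), and right, their summed FPKM, in each library. The share was 7.80% and 14.7% in the IP libraries and 3.65% and 2.41% in the inputs, while summed FPKM set SF3B6 IP 2 at 29808 apart from the other libraries, which lay between 16467 and 19054.

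The 7SL sum rose in IP. After TMM scaling it stood at 145663 ± 71162 CPM in IP and 33069 ± 10723 CPM in input (SD, n = 2 libraries each), which was 4.40-fold higher (log2 fold change 2.14, SE 0.34, adjusted p by edgeR = 5.8e-05). The sum of RN7SL1 and RN7SL3 was 4.47-fold higher (2.16 ± 0.35, edgeR adjusted p = 4.01e-05). The named pseudogene copies together were 3.57-fold higher (1.84 ± 0.23, adjusted p = 2.84e-07). The remaining 7SL rows without RN7SL1, a sum added after values were seen, were 3.42-fold higher (1.77 ± 0.26, adjusted p = 2.52e-06). Without input 2 the edgeR call was lost for the whole sum (adjusted p = 0.240), for RN7SL1 plus RN7SL3 (0.259, and 0.0630 without input 1) and for the sum without RN7SL1 (0.140), and with a replicate block for the whole sum (0.0702) and RN7SL1 plus RN7SL3 (0.0810). Without SF3B6 IP 2 the log2 fold change was 1.43 for the whole sum and 1.43 for RN7SL1 plus RN7SL3. With library totals recovered from the FPKM table no sum passed in edgeR, at log2 fold changes of 0.49 for the whole sum (adjusted p = 0.145), 0.52 for RN7SL1 plus RN7SL3 (0.118), 0.23 for the named pseudogenes (0.562) and 0.17 for the sum without RN7SL1 (0.624), where the median of all tested genes was -1.65. With limma on log2(FPKM + 1) the named pseudogenes did not pass (0.21, adjusted p = 0.484). The whole sum (0.46, limma adjusted p = 0.0152) and RN7SL1 plus RN7SL3 (0.48, 0.00998) passed there, where the median of all tested genes was -1.05.

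How much higher 7SL stood depended on the scale, as the deposited FPKM values show. FPKM sets a count against the length of its gene and the total of its library. That total was recovered here as 757739 and 501218 in SF3B6 IP 1 and 2, against 2121304 and 2546674 in input 1 and 2. Counts in genes made up 7.32% and 6.07% of that total in the IP libraries, against 15.0% and 20.4% in the inputs. Summed FPKM of the 7SL rows was 19054 and 29808 in SF3B6 IP 1 and 2, against 18249 and 16467 in input 1 and 2. SF3B6 IP 1 thus lay close to input 1 on this scale, and SF3B6 IP 2 lay above all other libraries. As a share of the recovered total, 7SL was 0.571% and 0.893% in the IP libraries, against 0.546% and 0.493% in the inputs. As a share of summed FPKM over all genes it was 30.0% and 45.4% in the IP libraries, against 19.8% and 16.0% in the inputs.

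Of the 76 rows, 5 had at least 50 counts over the 4 libraries and are called well counted here. The same 5 passed edgeR's filter on low counts, and the other 71 were left out of that fit. RN7SL767P, at 72.5 and 51.9 CPM in input, passed the filter only with its IP levels (252 and 427 CPM). Its place among the tested rows is therefore not independent of its level in IP. With no filter all 76 rows were tested, and 5 were higher and 0 lower in edgeR (5 and 0 at unadjusted p under 0.05), where 50 of 18276 genes were higher and 163 lower. All 5 tested rows were higher in IP (edgeR adjusted p under 0.05), where 2.70% of all 3668 tested genes were higher and 1.36% were lower. DESeq2 called 4 of the 5, with RN7SL4P at an adjusted p of 0.0728. It gave an adjusted p to 1819 of the 3668 genes, of which 35 were higher and 3 lower. With the FPKM totals none of the 5 passed in edgeR (1 at unadjusted p under 0.05), where 0.463% of tested genes were higher and 57.2% were lower. With upper quartile scaling all 5 passed, where 1.83% of tested genes were higher and 1.88% lower, and with library totals all 5 passed, where 1.64% were higher and 2.45% lower. Over all tested genes, 99 were higher and 50 lower with TMM, 67 and 69 with upper quartile scaling, 60 and 90 with library totals, and 17 and 2098 with the FPKM totals.

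**Figure D2:**
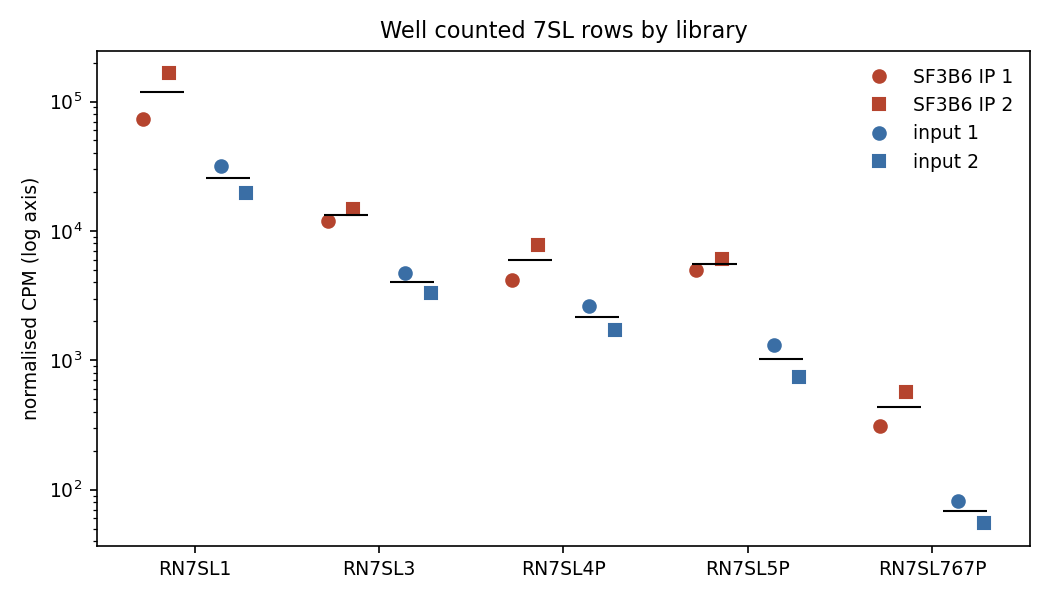
Normalised CPM (log axis) of the 5 well counted 7SL rows in each library, with IP libraries left of inputs and a black line at each group mean. Both IP libraries lie above both inputs for all 5 rows, as they do for 20.9% of all tested genes. SF3B6 IP 2 lies above SF3B6 IP 1 in each of the 5.

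RN7SL1 (ENSG00000276168.1, chromosome 14, 49586580 to 49586878, GRCh38.p14) is one of the genes from which functional 7SL RNA is made. It had 3341 and 3797 counts in SF3B6 IP 1 and 2, against 9048 and 9605 in input 1 and 2. It was the row with the most counts in both IP libraries and in input 1, and ranked 2 in input 2. It was 4.64-fold higher in IP, at 119507 ± 64972 CPM in IP and 25706 ± 8666 CPM in input (SD, n = 2 libraries each; log2 2.22 ± 0.36 SE, edgeR adjusted p = 6.66e-05). The call was lost without input 2 (adjusted p = 0.230), with a replicate block (0.0729) and with the FPKM totals (log2 fold change 0.58, adjusted p = 0.0770), and the value was 1.42 without SF3B6 IP 2. Per length it had 14746 and 25336 FPKM in SF3B6 IP 1 and 2, against 14265 and 12614 FPKM in input 1 and 2, the highest FPKM of any row in each library. Its RefSeq position lies within the span of RPS29, a gene of the small ribosomal subunit, which had 1 and 4 counts in SF3B6 IP 1 and 2, against 33 and 32 in input 1 and 2.

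RN7SL3 (ENSG00000278771.1, chromosome 14, 49853616 to 49853914), also a 7SL gene, had 543 and 339 counts in SF3B6 IP 1 and 2, against 1347 and 1637 in input 1 and 2. It stood at 13364 ± 1991 CPM in IP and 4038 ± 992 CPM in input and was 3.30-fold higher (log2 1.72 ± 0.23 SE, adjusted p by edgeR = 2.09e-06). Its FPKM was 2397 and 2262 in the IP libraries, against 2124 and 2150 in the inputs, so that the groups differed little on that scale. With the FPKM totals its log2 fold change was 0.12 (adjusted p = 0.745), and the TMM call was lost without input 2 (adjusted p = 0.0592). No other RefSeq gene overlapped RN7SL3.

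RN7SL4P (ENSG00000263740.2, chromosome 3, 15738515 to 15738786), a pseudogene copy within the span of ANKRD28, had 190 and 179 counts in SF3B6 IP 1 and 2, against 740 and 836 in input 1 and 2. ANKRD28 itself had 3 and 1 counts in the IP libraries, against 18 and 29 in the inputs, far below the copy it contains. RN7SL4P rose 2.71-fold, the smallest change of the 5 copies (log2 1.44 ± 0.23 SE, edgeR adjusted p = 6.42e-05). Its FPKM was 850 and 1211 in the IP libraries, against 1183 and 1113 in the inputs, and here the groups overlapped. With the FPKM totals its log2 fold change turned to -0.16 (adjusted p = 0.703). The call was lost without input 2 (edgeR adjusted p = 0.0802) and in DESeq2 (0.0728).

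RN7SL5P (ENSG00000265735.2, chromosome 9, 9441998 to 9442310), a pseudogene copy within the span of PTPRD, had 228 and 138 counts in SF3B6 IP 1 and 2, against 370 and 363 in input 1 and 2. It stood at 5517 ± 702 CPM in IP and 1021 ± 397 CPM in input and was 5.42-fold higher (log2 2.44 ± 0.22 SE, adjusted p by edgeR = 1.49e-10). Its call held without each library in turn. Its FPKM was 937 and 858 in the IP libraries, against 543 and 444 in the inputs, so that the groups stayed apart on that scale too. With the FPKM totals the log2 fold change was 0.86 and did not pass (edgeR adjusted p = 0.0603).

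RN7SL767P (ENSG00000241529.3, chromosome 3, 113632704 to 113632899), a pseudogene copy within the span of SIDT1, had 14 and 13 counts in SF3B6 IP 1 and 2, against 23 and 27 in input 1 and 2. SIDT1 had no IP count and a single count, in input 2. The copy was 6.07-fold higher (log2 2.60 ± 0.43 SE, adjusted p by edgeR = 8.66e-05). It passed the filter only with its IP levels, so this test is not independent of them. Its log2 fold change was 2.15 to 2.95 when each library was left out in turn. With at least 50 counts in 2 libraries required, the row was not tested. Its FPKM was 62.6 and 87.9 in the IP libraries, against 36.8 and 35.9 in the inputs, with no overlap. The length that counts and FPKM imply for this row is 295 bases, against 196 in RefSeq, so its position is that of RefSeq and not of the counted model. Implied and RefSeq lengths also differed for RN7SL4P (295 and 272) and RN7SL5P (321 and 313), and were 299 for both genes, from which the FPKM totals were scaled.

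In order of FPKM averaged over the IP libraries the rows were RN7SL1 (20041 ± 7488), RN7SL3 (2329 ± 95.2), RN7SL4P (1030 ± 255), RN7SL5P (898 ± 56.3) and RN7SL767P (75.3 ± 17.9; SD, n = 2 libraries each). The order in input was the same, at 13440 ± 1168, 2137 ± 18.5, 1148 ± 49.3, 494 ± 70.2 and 36.3 ± 0.573 FPKM. RN7SL4P and RN7SL5P, neighbours in this order, differed by less than the SD of RN7SL4P in IP, while in input they stood well apart. On the FPKM scale the IP libraries both exceeded the inputs in 4 of the 5 rows, the exception being RN7SL4P, where 1.36% of tested genes lay above and 88.8% below. On normalised CPM they did so in 5 of 5 rows, where 20.9% of tested genes lay above and 28.5% below.

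**Figure D3:**
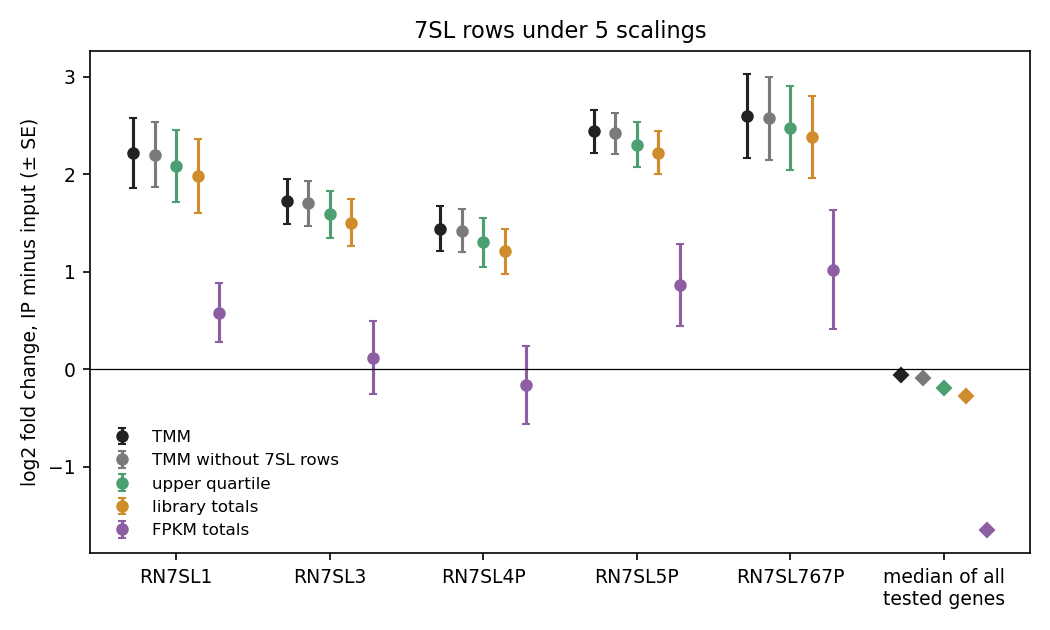
Log2 fold change, IP minus input (points, with SE), of the 5 well counted 7SL rows under 5 scalings, and the median of all tested genes (diamonds). The first 4 scalings keep every row above 1.2, and the FPKM totals move the rows to between -0.16 and 1.02 and the median of tested genes to -1.65.

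**Figure D4:**
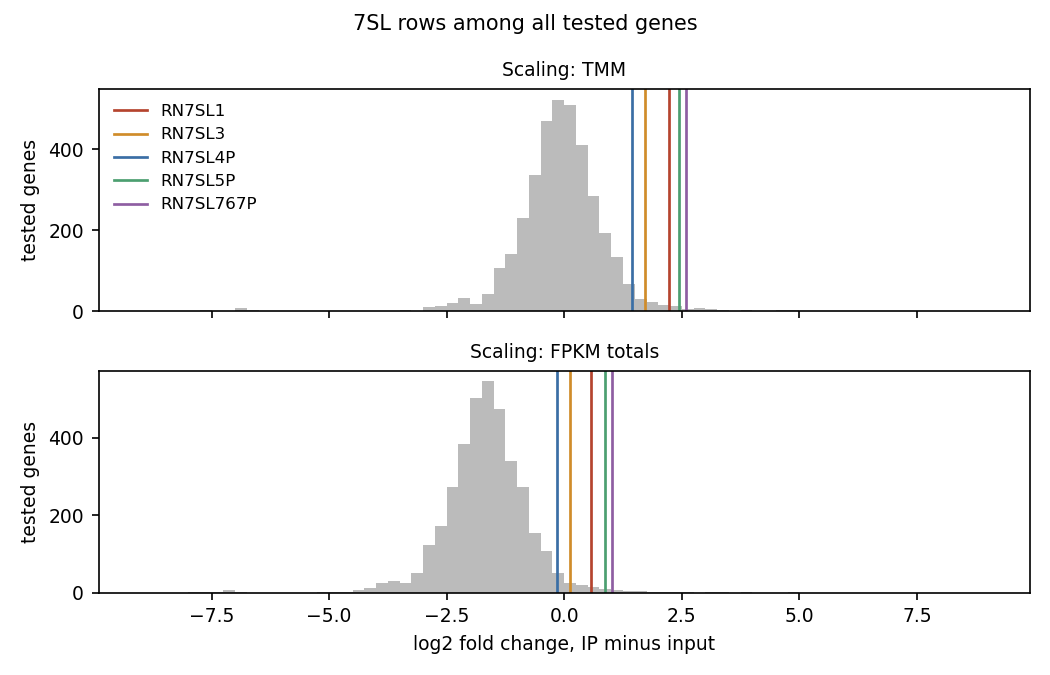
Number of tested genes by log2 fold change, IP minus input, in bins of 0.25 (grey), with a line for each well counted 7SL row, under TMM (top) and the FPKM totals (bottom). In both panels the 5 lines lie in the right part of the distribution, between 1.44 and 2.60 with TMM and between -0.16 and 1.02 with the FPKM totals.

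The make-up of the 7SL counts differed between copies in ways that do not depend on scaling between libraries. RN7SL1 held 77.2% and 84.9% of 7SL counts in SF3B6 IP 1 and 2, against 78.1% and 76.5% in input 1 and 2. SF3B6 IP 1 thus had the make-up of the inputs for RN7SL1, and SF3B6 IP 2 alone lay above. RN7SL3 held 12.5% and 7.58% in the IP libraries, against 11.6% and 13.0% in the inputs, with SF3B6 IP 2 below the other libraries. Without SF3B6 IP 2 the differences of RN7SL1 and RN7SL3 changed sign, to -0.13 and 0.21 percentage points. RN7SL4P held 4.39% (95% Wilson interval 3.82 to 5.04) and 4.00% (3.46 to 4.62) in the IP libraries, against 6.39% (5.96 to 6.85) and 6.66% (6.24 to 7.11) in the inputs. Its groups and intervals did not overlap, and the difference was -2.33 percentage points (exact permutation p = 0.333, the smallest possible). RN7SL5P held 5.27% and 3.08% in the IP libraries, against 3.19% and 2.89% in the inputs, and here the groups overlapped.

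Set against RN7SL1 in the same library, RN7SL4P had 5.69 and 4.71 counts per 100 RN7SL1 counts in SF3B6 IP 1 and 2, against 8.18 and 8.70 in input 1 and 2. RN7SL4P was thus lower relative to RN7SL1 in both IP libraries, by 0.70 on the log2 scale (exact permutation p = 0.333). RN7SL767P had 0.419 and 0.342 per 100 RN7SL1 counts in IP, against 0.254 and 0.281 in input, but its Wilson intervals as a share of 7SL counts overlapped between groups. For RN7SL3 the values were 16.3 and 8.93 in IP, against 14.9 and 17.0 in input, and for RN7SL5P 6.82 and 3.63, against 4.09 and 3.78. Both of these overlapped between groups. None of the 6 such ratios tested can pass an adjusted threshold with 2 against 2 libraries.

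**Figure D5:**
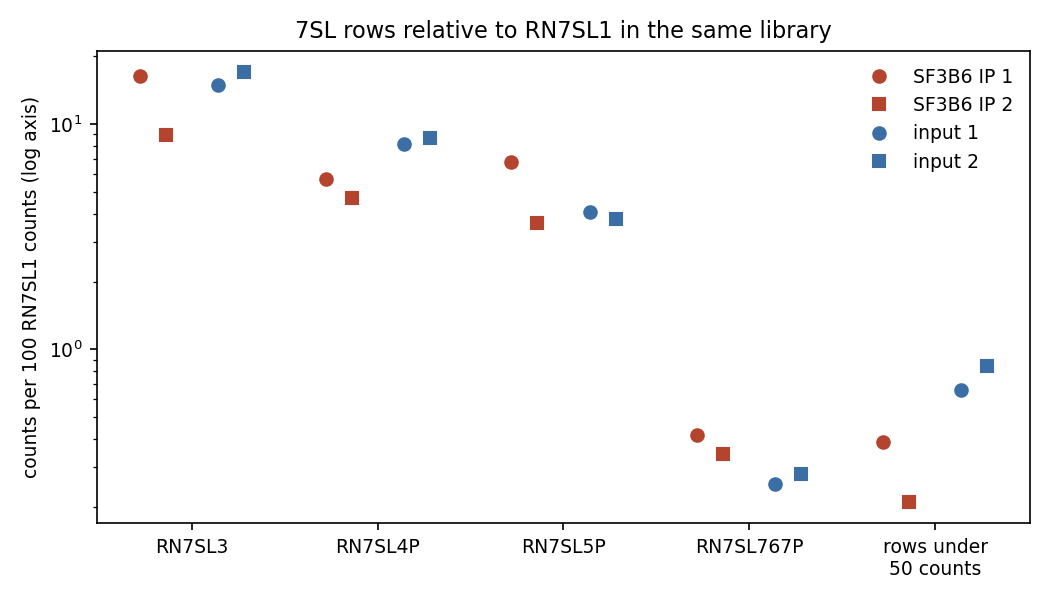
Counts per 100 RN7SL1 counts (log axis) in each library for RN7SL3, RN7SL4P, RN7SL5P, RN7SL767P and the sum of the 71 rows under 50 counts. RN7SL4P (5.69 and 4.71 in IP, 8.18 and 8.70 in input) and the rows under 50 counts (0.389 and 0.211 in IP, 0.663 and 0.843 in input) are lower in both IP libraries.

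The 2 IP libraries did not differ by 1 common factor across the copies. In CPM over all gene counts, SF3B6 IP 2 stood above SF3B6 IP 1 by 2.07-fold for RN7SL1 (95% exact interval 1.98 to 2.17) and 1.72-fold for RN7SL4P (1.39 to 2.12). For RN7SL3 the ratio was 1.14 (0.991 to 1.31) and for RN7SL5P 1.10 (0.887 to 1.37), both with intervals that include equal levels. For RN7SL767P it was 1.69 (0.733 to 3.88). For the 7SL sum, of which RN7SL1 held most counts, it was 1.88 (1.81 to 1.97). Between the inputs the ratio of input 1 to input 2 was closer among the copies, from 1.35 for RN7SL3 (1.25 to 1.45) to 1.67 for RN7SL5P (1.44 to 1.94), with RN7SL1 at 1.54 (1.50 to 1.59).

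The 71 rows under 50 counts summed to 13 and 8 counts in SF3B6 IP 1 and 2, against 60 and 81 in input 1 and 2. As a share of all counts that was 0.0234% and 0.0263% in the IP libraries, against 0.0189% and 0.0156% in the inputs, with Wilson intervals that overlapped between the groups. Their pooled ratio of IP to input was 1.45 (95% exact interval 0.871 to 2.30), against 3.73 (3.63 to 3.83) for RN7SL1 and 3.57 (3.48 to 3.65) for the 5 well counted rows. Such intervals treat the pooled reads of a group as 1 sample and leave out the spread between its libraries. Per 100 RN7SL1 counts these rows had 0.389 and 0.211 counts in IP, against 0.663 and 0.843 in input, a difference of -1.39 on the log2 scale (exact permutation p = 0.333). Since rows entered this set by their counts, of which most came from the inputs, the difference is a description.

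Among these rows RN7SL674P, a copy on chromosome 2 (11584773 to 11584972) within the span of GREB1, had the most counts, namely 7 and 1 in SF3B6 IP 1 and 2, against 16 and 21 in input 1 and 2. Its ratio of pooled counts was 2.11 with an interval from 0.847 to 4.60. RN7SL648P on chromosome X (74242608 to 74242908), within the span of the lncRNA gene FTX, had no IP count, against 4 and 6 counts in input 1 and 2. RN7SL589P on chromosome 4 (2316197 to 2316506) had no IP count either, against 4 and 2 in the inputs. RN7SL49P had 0 in IP and 2 and 2 in input, RN7SL735P had 1 and 0 against 0 and 3, and a Metazoa_SRP row on chromosome 16 had 0 and 1 against 3 and 0. RN7SL23P, RN7SL614P, RN7SL521P and RN7SL65P had 3 counts each, all of them in the inputs. The remaining rows had 1 or 2 counts, and 45 of the 71 had a single count over all 4 libraries. In all, 59 of the 71 had no IP count, 12 had one, and 6 had counts in IP alone.

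Rows with at least 1 count numbered 12 and 12 in SF3B6 IP 1 and 2, against 37 and 50 in input 1 and 2. When every library was thinned to 30431 counts in genes, the expected number was 9.29 and 12.0 rows in the IP libraries, against 9.75 and 8.94 in the inputs, so that the groups overlapped. When libraries were thinned to 4329 counts of 7SL instead, it was 12.0 and 11.8 in the IP libraries, against 20.1 and 24.1 in the inputs. Relative to 7SL counts, fewer copies were thus seen in both IP libraries, and relative to all counts the IP libraries lay on either side of input 1. The 14 Metazoa_SRP rows had 1 and 2 counts in IP against 9 and 8 in input, a pooled ratio of 1.72 with an interval from 0.323 to 5.94. Of the 62 named rows, all 62 matched a RefSeq gene, and 52 overlapped the span of another RefSeq gene. The 76 rows lay on 20 chromosomes.

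A row that is not a member had a profile over the libraries nearly equal to that of 7SL. RP11-596C23.6 (ENSG00000282885.2), annotated as lncRNA on chromosome 14, the chromosome of RN7SL1 and RN7SL3, had 2839 and 2767 counts in SF3B6 IP 1 and 2, against 7666 and 8044 in input 1 and 2. That was 85.0 and 72.9 counts per 100 RN7SL1 counts in IP, against 84.7 and 83.7 in input. Among 200 genes with at least 500 counts, its root mean square distance from the 7SL sum, over the 4 log2 CPM values after centring, was the smallest at 0.04. The next were the U4 gene RNU4-2 at 0.30 and the U3 gene SNORD3A at 0.40. Whether it overlaps a 7SL gene was not tested, since no start and end were at hand for it. This measure of likeness was chosen after values had been seen.

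7SL was also set against 7SK, a nuclear regulator of transcript elongation, and against 5S rRNA, both made by RNA polymerase III. In counts, the ratio of 7SL to 7SK was 12.8 and 21.2 in SF3B6 IP 1 and 2, against 4.56 and 3.61 in input 1 and 2. The groups did not overlap, and the log2 ratio differed by 2.02 (exact permutation p = 0.333, the smallest possible). The main 7SK row, on chromosome 6, had 306 and 205 counts in SF3B6 IP 1 and 2, against 2381 and 3279 in input 1 and 2, and did not pass (log2 fold change 0.05 ± 0.23 SE, edgeR adjusted p = 0.963). The ratio of 7SL to 5S rRNA, a ribosomal RNA, was 13.6 and 26.5 in IP, against 30.6 and 32.8 in input, a log2 difference of -0.74 (exact permutation p = 0.333). It was -0.26 without SF3B6 IP 1 and -1.22 without SF3B6 IP 2. 7SL was thus higher relative to 7SK in both IP libraries. It was also lower relative to 5S rRNA in both, but SF3B6 IP 2, with 169 counts of 5S rRNA, was not far below input 1 (26.5 against 30.6). No interval was computed for these ratios.

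In the list of other polymerase III transcripts, 12 of 65 rows were tested and 9 were higher in IP, with a median log2 fold change of 2.68, where 2.70% of all tested genes were higher and their median was -0.06. The list and its median leave out 7SK, which was planned as RN7SK but has the symbol 7SK here. The tested rows 7SK, RN7SKP203 and RN7SKP255 were at 0.05, 0.06 and 0.43 and did not pass in edgeR. All 9 were 5S rRNA rows, RNA5S5, RNA5S7 to RNA5S13 and RNA5SP202, at 2.32 to 3.26 on the log2 scale, while RNA5S6 at 2.04 did not pass (edgeR adjusted p = 0.0827). They included RNA5SP202 (3.18 ± 0.21 SE, edgeR adjusted p = 1.12e-13) and RNA5S9 (2.58 ± 0.21, 2.44e-11). RNA5S5 to RNA5S8 and RNA5S10 to RNA5S13 had at most 16 counts in input 1 and 20 in input 2. These rows passed edgeR's filter only with their IP levels. Their places among the tested rows, and the median of 2.68, are therefore not independent of their levels in IP. With at least 50 counts in 2 libraries, 2 of 4 rows were higher (median 1.72), where 80 of 1115 genes were. With no filter 6 of 65 were higher, where 50 of 18276 genes were. RPPH1, the RNA of RNase P, had the most counts of the list and was at 0.43 ± 0.25 (edgeR adjusted p = 0.411), and RMRP, the RNA of RNase MRP, was at -0.48 ± 0.22 (0.262). Higher rows numbered 2 of 9 tested without input 1, where 39 of 1266 genes were higher, and 2 of 9 without input 2, where 26 of 1221 were. They numbered 3 of 15 without SF3B6 IP 1, where 30 of 6297 genes were higher, and 2 of 12 with the FPKM totals, where 17 of 3668 were.

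The messengers of proteins of the particle, of its receptor and of SSB were sparse. The list of 9 genes had 7 and 8 counts in SF3B6 IP 1 and 2, against 81 and 126 in input 1 and 2, a pooled ratio of 0.706 with an interval from 0.388 to 1.19. SRPRA, the receptor subunit on the ER membrane that docks the particle, was the one gene tested, with 4 and 7 counts in IP against 39 and 67 in input. It was at 0.24 ± 0.50 on the log2 scale and did not pass (edgeR adjusted p = 0.894), so that 0 of 1 passed in edgeR and in DESeq2 (0 at unadjusted p under 0.05 in both). With no filter 0 of 9 passed in edgeR (2 lower at unadjusted p under 0.05). SRP68, a large protein of the particle, had 0 IP counts against 15 and 23 in input, and SRPRB, the membrane anchor of the receptor, 0 against 8 and 15. SRP72, the partner of SRP68, had 2 and 1 counts in IP against 4 and 10 in input. SRP9 and SRP14, which bind the Alu domain and slow translation, had 0 IP counts against 4 and 4, and 2 and 4, in input. SRP19, which helps the particle assemble, had 0 against 4 and 2. SRP54, which binds the signal peptide, had 0 against 4 and 0, and SSB, the La protein that binds the ends of polymerase III transcripts, 1 and 0 against 1 and 1. No difference in these genes was detectable at this depth.

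Genes of the ER translocon and of signal peptidase, which take over the nascent chain after the particle, did not pass either. Of 16 listed, 5 were tested and 0 passed in edgeR (1 lower at unadjusted p under 0.05) or in DESeq2 (0 at unadjusted p under 0.05), with a median of 0.14 against -0.06 for all tested genes. SEC61A1, the channel subunit, had 16 and 7 counts in IP against 149 and 311 in input (log2 fold change -0.81 ± 0.29 SE, edgeR adjusted p = 0.127). SSR1, a subunit of the translocon-associated protein complex, had 2 and 2 against 26 and 32 (-0.35 ± 0.75, 0.894), and SSR4, of the same complex, 6 and 1 against 19 and 32 (0.63 ± 0.64, 0.702). Summed over the 16 genes, the pooled ratio of IP to input was 0.633 (95% exact interval 0.469 to 0.839), with 38 and 14 counts in IP against 281 and 519 in input. That is 685 and 460 CPM in IP against 886 and 998 CPM in input, so the groups did not overlap, though the interval covers counting error alone. SEC61A1 alone held 23 of the 52 IP counts and 460 of the 800 input counts. On normalised CPM, 28.5% of all tested genes had both IP libraries below both inputs. With library totals the median of all tested genes was itself -0.27.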

How the data were processed

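Read counts per gene, deposited by the authors without normalization, and FPKM values of the same genes, deposited by the authors as counts per gene length and library total, were used. The submitters' processing notes list HISAT2, HOMER and hg38 without saying what each did. The sources used here do not give the counting tool, its strand setting or its handling of multiply mapped reads. Gene counts summed to 30431 to 55492 in IP libraries and 317190 to 519836 in inputs. The labels' protocols also name a control IgG, which was not analysed here.

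The quasi-likelihood test of edgeR 4.0.16 in R 4.3.3 was fitted to the 3668 genes that passed filterByExpr, using TMM factors of 0.860 to 1.13 and no covariate beside group. Adjusted p-values (Benjamini-Hochberg) under 0.05 were called. SE was computed from the fold change and F. For sums, the member rows were replaced by their sum and all genes refitted, leaving 3664 rows for the whole sum. Library totals behind FPKM were recovered from counts over FPKM in 93 genes with at least 20 counts and 5 FPKM in every library. The class sum of genes held RN7SL1 and RN7SL3, and the planned identity of copies to RN7SL1 was not computed. Totals were set to scale by the RefSeq lengths of RN7SL1 and RN7SL3. Alternatives were other scalings, filters, DESeq2 1.42.0, limma 3.58.1 on log2(FPKM + 1), a replicate block and leaving out each library. Shares of all 5 well counted rows were tested. The edgeR step was run on simulated counts, where 70.5% of 176 changed genes were recovered and 0.213% of unchanged genes were called. That simulation used the same dispersion for every gene, which was not estimated from these libraries. Replicates are called biological by the series, with no further detail on their source, so p-values measure the spread between these libraries.

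Named rows were those with at least 50 counts, then the 10 next by counts, every gene of the particle's protein list, and from the other lists those past the threshold and the 3 with most counts. Members and lists were chosen with earlier results of these data known. Positions are those of RefSeq GRCh38.p14, matched by symbol. Sequences of the 7SL rows were not used here.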

Additional observations from a re-analysis of the deposited data

How the results depend on the processing

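The direction of the 7SL sum was kept in every alternative run, and its call in all but the FPKM totals, a replicate block and the fit without input 2. With the FPKM totals (edgeR adjusted p in brackets) the log2 fold changes were 0.49 (0.145) for the sum, 0.52 (0.118) for RN7SL1 plus RN7SL3, 0.23 (0.562) for the named pseudogenes, 0.58 (0.0770) for RN7SL1, 0.12 (0.745) for RN7SL3, -0.16 (0.703) for RN7SL4P, 0.86 (0.0603) for RN7SL5P and 1.02 (0.125) for RN7SL767P. The calls were 0 of 5 7SL rows higher, 2 of 5 translocon genes lower, and 2 of 12 polymerase III rows higher and 2 lower, where 0.463% of 3668 genes were higher and 57.2% lower. With this scaling the median of all tested genes was -1.65. Counts in genes made up 7.32% and 6.07% of the recovered totals in SF3B6 IP 1 and 2, against 15.0% and 20.4% in input 1 and 2.

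With limma on log2(FPKM + 1), the named pseudogenes were at 0.21 (adjusted p = 0.484), RN7SL3 at 0.12 (0.655), RN7SL4P at -0.18 (0.588) and RN7SL767P at 1.01 (0.0577), while 2 of 5 7SL rows and 5 of 12 polymerase III rows were higher, and 2 of 5 translocon genes and 2 of 12 polymerase III rows lower, where 25 of 3668 genes were higher and 2548 lower. The cause was not tested. DESeq2 put RN7SL4P at 1.50 (adjusted p = 0.0728). The replicate numbers are not stated to pair libraries, and the deviations of IP 1 and input 1 did not correlate over genes (r = 0.00). With a replicate block the sum was at 2.09 (adjusted p = 0.0702), RN7SL1 plus RN7SL3 at 2.10 (0.0810) and RN7SL1 at 2.14 (0.0729), and the block ended no other 7SL call. With no filter 1 of 16 translocon genes and 1 of 65 polymerase III rows were lower, where 163 of 18276 genes were, and with at least 50 counts in 2 libraries 2 of 4 polymerase III rows were higher, where 80 of 1115 genes were.

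Leaving out each library in turn gave 1.43 to 2.58 for the sum, 1.43 to 2.61 for RN7SL1 plus RN7SL3, 1.43 to 2.27 for the named pseudogenes, 1.42 to 2.68 for RN7SL1, 1.48 to 2.06 for RN7SL3, 0.88 to 1.86 for RN7SL4P, 2.12 to 2.95 for RN7SL5P and 2.15 to 2.95 for RN7SL767P. The lone library of a group was assumed to vary like the other group. The tested sets also changed between these fits, with 5 or 6 7SL rows, 9 to 15 polymerase III rows and 1221 to 6297 genes. Counts of called rows are therefore not comparable between them. RN7SL1 plus RN7SL3 lost its call without input 1 (adjusted p = 0.0630) and input 2 (0.259). Fewer 7SL rows were called higher without input 2, and fewer polymerase III rows in each of these fits, with that same limit. The 7SL share differed by 4.77 to 11.67 percentage points, the share of RN7SL1 within 7SL by -0.13 to 7.56, of RN7SL3 by -4.76 to 0.21, of RN7SL4P by -2.52 to -2.13 and of RN7SL5P by 0.04 to 2.22. The log2 ratio of 7SL to 7SK differed by 1.66 to 2.39 and to 5S rRNA by -1.22 to -0.26. Over all genes, 99 were higher and 50 lower, against 35 and 3 with DESeq2 and 68 and 22 with a replicate block. DESeq2 gave an adjusted p to only 1819 of the 3668 genes. Low depth left 71 copies and 8 of the 9 genes of the particle's protein list under the filter, and with no filter none of these passed.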
